A study of Mus musculus with 6 samples.

Results

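The genes described here are 5 annexins (Anxa1, Anxa2, Anxa3, Anxa5 and Anxa6) and 5 S100 genes (S100a4, S100a6, S100a10, S100a11 and S100a13). These members make 10 of the 16279 genes listed in the deposited tables and were chosen by name, with earlier results of these data known. They were measured by bulk RNA-seq in 2 groups of 3 libraries from male F1 hybrid mouse cells (C57BL/6 x CAST/EiJ in the labels, with C57BL/6J mothers and CAST/EiJ fathers in the study's methods): mouse embryonic stem cells (mESCs, columns S01 to S03) and cardiac precursor cell cultures derived from them (CPCCs, columns S04 to S06). The mESCs were kept without feeder cells in medium with LIF and the inhibitors PD0325901 and CHIR99021, and the 3 samples were clones, each grown from a single cell of a line from a separate blastocyst. The CPCCs came from embryoid bodies grown with ascorbic acid, which were dissociated, cultured with EGF and Fgf2 and passaged before collection, and they are a mixture of cell types rather than a sorted population. The labels give no age for either group and name no other allele or treatment.

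Annexins are cytosolic proteins that bind acidic phospholipids when calcium rises, and they take part in membrane repair, vesicle traffic and the linking of membranes to actin. S100 proteins are small dimers with EF-hand loops. Most of them, though not S100A10, change shape on binding calcium and then attach to partner proteins, several of which are annexins. The best known complex joins annexin A2 to S100A10 under the plasma membrane, where it also serves as a platform for plasminogen activation, and annexin A1 pairs with S100A11 in a similar way. Both families are abundant in fibroblasts, smooth muscle and other mesenchymal cells.

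Of the 10 genes, 8 were higher in CPCCs than in mESCs and 1, S100a13, was lower, while S100a4 was listed for CPCCs only. All 9 members listed for both groups passed edgeR's quasi-likelihood test at an adjusted p under 0.05, where 61.4% of the 12471 genes tested did so. The 8 that rose stand against 31.7% of genes called higher, and the 1 that fell against 29.7% called lower. In all 9 the CPCC libraries lay entirely above or entirely below the mESC libraries, as was the case for 69.7% of genes. The median log2 fold change of these 9 genes was 5.40, against 0.0313 over all genes tested, and it was 4.94 over the 10 genes with S100a4 placed at its lower bound. Anxa1, Anxa3, Anxa5 and S100a6 were within the top 1% of all genes tested by rise, and Anxa2 was within the top 5%. Because the members were chosen with earlier results of these data known, these shares, medians and ranks describe the chosen genes only.

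The sequences that follow are stretches ahead of the RefSeq start sites of 4 members, from the sense strand of GRCm38.p6 and outside annotated exons, and they are shown because these genes moved together or against their neighbours. Capitals mark the letters TGAGTCA (a match to TGANTCA, the AP-1 type of site), GGGCGG (the GC box) or TATAAA (the TATA box). The Anxa2 stretch is chr9:69453573-69453619, the S100a11 stretch chr3:93520346-93520487, the S100a4 stretch chr3:90603710-90603769, all on the plus strand, and the S100a13 stretch, chr3:90514393-90514434, is the whole interval between the starts of S100a13 and S100a1.
Anxa2: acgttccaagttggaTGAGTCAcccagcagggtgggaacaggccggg
S100a11: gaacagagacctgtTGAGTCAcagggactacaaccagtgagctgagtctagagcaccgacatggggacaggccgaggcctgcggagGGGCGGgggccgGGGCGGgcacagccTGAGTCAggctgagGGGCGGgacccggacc
S100a4: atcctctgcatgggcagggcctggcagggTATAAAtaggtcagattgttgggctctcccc
S100a13: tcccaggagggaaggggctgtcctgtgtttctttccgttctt

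RefSeq windows of 250 bases before to 50 bases after the start were found for 7 of the 10 members. Anxa3, Anxa6 and S100a10 had no entry. TATAAA, searched on both strands, was present in 3 of these 7 windows and in 13.6% of all 32851 windows. It began 32 bases before the RefSeq start of Anxa1, 17 before that of Anxa2 and 31 before that of S100a4, and for Anxa1 and Anxa2 longer GENCODE transcripts already cover that position. TGANTCA, a palindrome, was present in Anxa2, where it began 95 bases before the start, and at 136 and 38 bases before the start of S100a11, against 7.81% of all windows. GGGCGG was present 3 times in each of these same windows and in 35.7% of all windows. GGAATG, the core of the site that TEAD factors bind, held by 14.7% of windows, was found only in that of Anxa1, and the CArG box, held by 1.63%, only in that of Anxa5, where it began 25 bases after the start. Such matches describe letters and are not evidence of binding.

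Anxa1, on chromosome 19 (20373434 to 20390672 in mm10, minus strand), encodes a glucocorticoid-regulated inhibitor of phospholipase A2. With libraries given in the order of their column names here and below, mESC counts were 15, 19 and 17 (S01 to S03), whereas CPCC counts were 7038, 2099 and 1804 (S04 to S06). Expressed as CPM (counts per 1000000 reads, scaled by TMM, the trimmed mean of M-values), the mESC level was 2.53 ± 0.242 and the CPCC level 387.0 ± 271.8 (SD, n = 3 each). The groups did not overlap, and S04 stood well above the other CPCC libraries. The log2 fold change was 7.25 with a standard error (SE) of 0.56 (152-fold higher, edgeR adjusted p = 1.13e-05). Without S04 it was 6.51.

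Anxa3, on chromosome 5 (96793385 to 96845969, plus strand), showed the largest rise of the members listed for both groups. It ranked 23rd by rise among the 12471 genes tested, which leaves out genes listed for CPCCs only. Its mESC counts of 21, 15 and 3 were close to the detection limit, and its CPCC counts were 7356, 3229 and 2618. The mESC level was 1.96 ± 1.42 CPM and the CPCC level 474.3 ± 227.2 CPM (SD, n = 3). The 241.5-fold rise (log2 7.92, SE 0.58, edgeR adjusted p = 9.01e-06) ranged from 7.44 without S03 to 8.47 without S01 on the log2 scale, so the size of the fold depended on few mESC reads.

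Anxa5, on chromosome 3 (36448924 to 36475888, minus strand), encodes the annexin used as a probe for phosphatidylserine. Counts were 15, 24 and 24 in mESCs, and 8008, 4977 and 3021 in CPCCs. The corresponding levels were 3.12 ± 0.695 and 581.9 ± 225.7 CPM (SD, n = 3), with every CPCC library far above every mESC library. The rise was 185-fold (log2 7.53, SE 0.39, edgeR adjusted p = 1.9e-06).

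Anxa2, on chromosome 9 (69453683 to 69491786, plus strand), was already present in mESCs, with counts of 155, 74 and 252. It reached counts of 13333, 8425 and 5967 in CPCCs. Its mESC level varied 3.39-fold among libraries, at 23.9 ± 13 CPM, and its CPCC level was 1010.3 ± 320.9 CPM (SD, n = 3). The log2 fold change was 5.40 (SE 0.46, 42.2-fold, edgeR adjusted p = 1.87e-05), between 5.06 without S02 and 5.86 without S03.

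Anxa6, on chromosome 11 (54978953 to 55033472, minus strand), is a larger annexin with a duplicated core and changed least among the 5 annexin members. Its counts were 435, 629 and 397 in mESCs, and 3165, 3224 and 2378 in CPCCs. These correspond to 72.6 ± 17.9 and 326.0 ± 60 CPM (SD, n = 3), a 4.49-fold rise (log2 2.17, SE 0.23, edgeR adjusted p = 5.76e-05). In mESCs Anxa6 had the highest CPM of these 5 annexins. In CPCCs its mean was the lowest of them, but Anxa1 was lower in S05 (254.5 against 391.0 CPM) and in S06 (206.7 against 272.5 CPM).

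**Figure D1:**
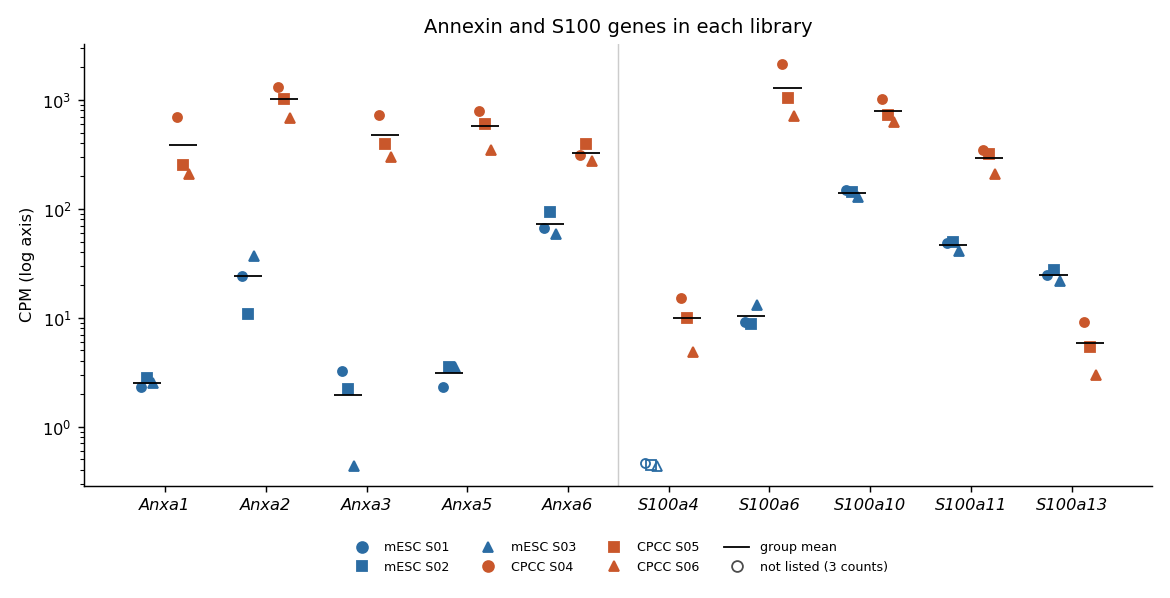
CPM on a log axis for each of the 10 genes in each library, with mESC libraries in blue, CPCC libraries in orange and black lines at group means; open symbols give the level of 3 counts for S100a4, which the mESC table did not list. The CPCC libraries lie above the mESC libraries for 8 genes listed in both tables and below them for S100a13.

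Among the S100 genes listed for both groups, S100a6 (chromosome 3, 90612894 to 90614415, plus strand), which encodes calcyclin, rose most. Its counts were 59, 59 and 90 in mESCs, and 21459, 8668 and 6168 in CPCCs, or 10.3 ± 2.47 against 1297.0 ± 744.2 CPM (SD, n = 3). The groups did not overlap, and its CPM in S04 exceeded that in the other CPCC libraries added together (2133.1 against 1051.1 and 706.9). The rise was 125-fold (log2 6.97, SE 0.47, edgeR adjusted p = 5.84e-06) and was 6.42 on the log2 scale without S04.

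S100a10, the partner of annexin A2 (chromosome 3, 93555117 to 93564646, plus strand), and S100a11, the partner of annexin A1 (93520496 to 93526289, plus strand), started from a much higher level. S100a10 counts were 963, 976 and 868 in mESCs, and 10303, 5964 and 5476 in CPCCs, and S100a11 counts were 315, 338 and 283 against 3484, 2654 and 1832. In both genes the mESC libraries were close to each other and all CPCC libraries were higher. S100a10 went from 139.8 ± 11.4 to 791.6 ± 207.0 CPM (log2 2.50, SE 0.21, 5.66-fold, edgeR adjusted p = 1.73e-05). S100a11 went from 46.6 ± 4.53 to 292.7 ± 72.7 CPM (log2 2.65, SE 0.22, 6.28-fold, edgeR adjusted p = 1.77e-05). S100a11 has a processed pseudogene, and how reads shared with it were assigned is not given in the sources used here.

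S100a13 (chromosome 3, 90514435 to 90524582, plus strand), which takes part in the release of FGF1 and interleukin 1 alpha from cells, was the member that fell. Its counts were 161, 186 and 149 in mESCs, and 92, 44 and 26 in CPCCs, although the CPCC libraries were deeper. The level went from 24.7 ± 2.79 to 5.82 ± 3.11 CPM (SD, n = 3), with no overlap. This was a 4.21-fold decrease (log2 -2.07, SE 0.39, edgeR adjusted p = 0.00156), from -2.56 without S04 to -1.75 without S06.

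S100a4 (chromosome 3, 90603770 to 90606046, plus strand), a marker of fibroblasts and motile cells that binds non-muscle myosin, was not listed in the mESC table. Each table held only genes with at least 10 counts over its 3 libraries, so a missing gene had at most 3 counts per library on average. In CPCCs the counts were 154, 82 and 42, or 10 ± 5.25 CPM (SD, n = 3). This is at least 22.4-fold higher than the floor of 3 counts per library, or 16.5-fold without S04. Set to 3 counts in every mESC library, S100a4 had a log2 fold change of 4.37 (SE 0.57, edgeR adjusted p = 0.000325 over 13630 genes). Set to 0 counts, it had 9.32 (SE 1.10, edgeR adjusted p = 0.000389), so the size of its rise is not fixed by these data. Within the CPCCs it remained minor, since S100a6 had 139.3, 105.7 and 146.9 times as many reads in the same libraries.

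Summed over the 10 genes, the mESC libraries held 330.4, 341.3 and 304.7 CPM, and the CPCC libraries 7394.9, 4773.6 and 3361.6 CPM. The sum of the annexins rose 26.7-fold and that of the S100 genes 10.8-fold. S100a10 accounted for 41.7% to 45% of this sum in mESCs and 13.8% to 18.7% in CPCCs. S100a6 took 2.54% to 4.32% in mESCs and had the largest share in each CPCC library, 21% to 28.8%, with Anxa2 close to it in S05 (21.4%) and S06 (20.3%).

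Levels of different genes were compared as CPM per kilobase of the principal transcript. In mESCs the order was S100a10 (204.0), S100a11 (91.2), S100a13 (34.5), Anxa6 (29.2), Anxa2 (16.5), S100a6 (14.1), Anxa5 (1.8), Anxa1 (1.51) and Anxa3 (1.23). The first 3 places were separate from each other over the 3 libraries, whereas S100a13 overlapped Anxa6, Anxa6 overlapped Anxa2, Anxa2 overlapped S100a6, and Anxa5, Anxa1 and Anxa3 overlapped in turn. In CPCCs S100a6 came first (1774.3 ± 1018.1), followed by S100a10 (1155.7), Anxa2 (698.2), S100a11 (572.8), Anxa5 (336.2), Anxa3 (297.3), Anxa1 (231.2), Anxa6 (131.0), S100a4 (20.1) and S100a13 (8.14). Here the ranges of neighbours were separate only between S100a10 and Anxa2 and between Anxa6 and S100a4. With the length of all merged exons in place of the principal transcript, S100a11 and Anxa5 came before Anxa2 in CPCCs (572.8, 327.5 and 270.8), so that part of the order depended on the gene model.

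The proportions of partner genes also differed between the groups. The mESC libraries held 6.21, 13.2 and 3.44 reads of S100a10 per Anxa2 read, and the CPCC libraries 0.773, 0.708 and 0.918. By reads S100a10 was thus above Anxa2 in every mESC library and below it in every CPCC library, whereas per kilobase it was above Anxa2 in both groups (204.0 against 16.5 in mESCs and 1155.7 against 698.2 in CPCCs), so it is the size of the ratio that changed and not the order per length. The mean log2 ratio differed by -3.05 between the groups. Likewise S100a11 had 21, 17.8 and 16.6 reads per Anxa1 read in mESCs and 0.495, 1.26 and 1.02 in CPCCs, a log2 difference of -4.42. S100a6 per Anxa2 moved the other way, from 0.381, 0.797 and 0.357 to 1.61, 1.03 and 1.03. The widest difference was S100a13 per S100a6, at 2.73, 3.15 and 1.66 in mESCs and 0.00429, 0.00508 and 0.00422 in CPCCs, a log2 difference of -9.07.

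Of 9 ratios tested by a two-sided exact permutation test, 8 did not overlap between the groups. Each of these had p = 0.10 by the exact test, the smallest that 3 against 3 allows, and 0.11 after Benjamini-Hochberg adjustment over the 9, so no ratio could pass 0.05 in this design. Anxa1 per Anxa2 overlapped (0.0968, 0.257 and 0.0675 against 0.528, 0.249 and 0.302, exact permutation p = 0.20). These ratios are of reads and were not corrected for transcript length, and whether the groups use the same isoforms was not tested.

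**Figure D2:**
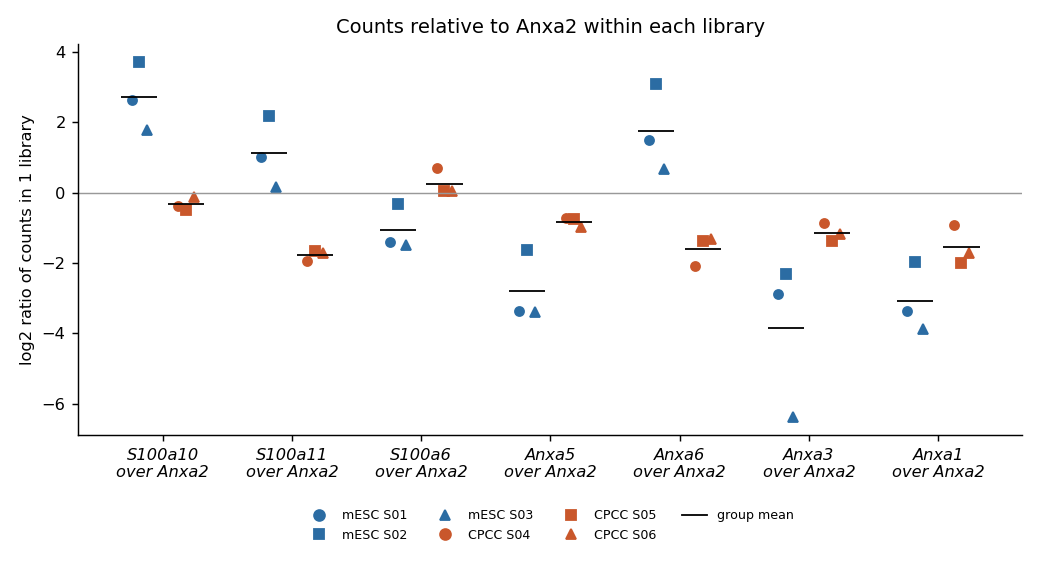
Log2 ratio of the counts of 7 members to those of Anxa2 within each library, with mESC libraries in blue, CPCC libraries in orange and black lines at group means. S100a10, S100a11 and Anxa6 moved down relative to Anxa2 in CPCCs, S100a6, Anxa5 and Anxa3 moved up, and Anxa1 overlapped between the groups.

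The members shared an order among the CPCC libraries. All but Anxa6 were highest in S04, next in S05 and lowest in S06, that is 9 of 10 members, an order seen in 24% of the genes tested. S04 exceeded S06 by 3.38 times for Anxa1, 3.18 for S100a4, 3.07 for S100a13, 3.02 for S100a6, 2.44 for Anxa3, 2.3 for Anxa5, 1.94 for Anxa2, 1.65 for S100a11 and 1.63 for S100a10, against a median of 1.53 between the highest and lowest CPCC library over all genes. Anxa6 was highest in S05 and varied 1.43-fold. S04 was also the deepest library. Leukocyte markers followed the same order, with summed levels of 416.5 CPM in S04, 135.0 CPM in S05 and 58.9 CPM in S06, against 62.5 to 75.8 CPM over the mESC libraries. Of their 10 genes, 7 were listed for CPCCs only, among them Ptprc (counts of 157, 23 and 3) and Lyz2 (1257, 273 and 122), macrophage and leukocyte genes. Most of the mESC sum was Laptm5 (59.9, 59.4 and 51.3 CPM). That gene was lower in CPCCs (48.4, 19.2 and 9.05 CPM) but did not pass the test. Adgre1 did not follow the order (19.6, 1.7 and 2.98 CPM). Smooth muscle markers summed in the same order, at 12838.3, 10325.4 and 7012.8 CPM. So did endothelial (60.4, 46 and 35 CPM) and endoderm markers (313.3, 309.0 and 268.5 CPM). Fibroblast and mesenchymal markers did not, at 10935.0, 12327.2 and 8413.9 CPM. Nor did cardiac precursor (424.1, 127.4 and 139.9 CPM) and epithelial markers (733.1, 689.6 and 1231.0 CPM). The pluripotency markers ran the other way, at 164.2, 309.7 and 413.7 CPM. The part of cell composition in the order of the members was not tested. With S04 left out, all 9 tested members were called in the same direction.

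The libraries held 6442639 to 6907330 counts in mESCs and 8468819 to 11436062 in CPCCs. On the TMM-scaled sizes used for CPM, 3 counts correspond to 0.298 to 0.463 CPM. All 10 pluripotency markers were lower in CPCCs. Of 10 markers of cardiac precursors, 4 were tested and 1 passed, 5 were listed for CPCCs only and 1 for mESCs only. Tnnt2, cardiac troponin T, rose 32.3-fold, and Actc1 was listed for CPCCs only (280.6, 85.4 and 85.6 CPM), as were Mef2c (19.3, 9.94 and 12.8 CPM), Hand1 (2.19, 0.364 and 1.95 CPM) and Hand2 (6.76, 1.09 and 1.95 CPM). Nkx2-5 had 16, 0 and 8 counts in CPCCs, Tbx5 was not listed for them, and Gata4, Isl1 and Myl7 did not pass the test. Fibroblast and mesenchymal markers summed to 8413.9 to 12327.2 CPM in CPCCs against 101.3 to 137.3 CPM in mESCs, and smooth muscle markers to 7012.8 to 12838.3 against 9.73 to 12.1 CPM. Endothelial markers summed to 35 to 60.4 CPM in CPCCs and 93.3 to 102.5 CPM in mESCs. Most of the endothelial sum in mESCs was Pecam1 (93, 94.3 and 86 CPM), which was lower in CPCCs. Cdh5, Kdr, Emcn and Flt1 were listed for CPCCs only, Erg for mESCs only, and Tek did not pass. Epithelial markers summed to 689.6 to 1231.0 CPM in CPCCs and 530.7 to 762.4 CPM in mESCs, and endoderm ones to 268.5 to 313.3 and 52.4 to 57 CPM. In such bulk samples a change in the share of cells of a type and a change in RNA per cell cannot be told apart.

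The other annexins moved in both directions. Of 7, 4 were tested, 1 rose, 2 fell and 1 did not pass, with a median log2 fold change of 0.07 (-0.19 without S04). Anxa8 rose (log2 3.28, SE 0.41, edgeR adjusted p = 0.000148), with counts of 45, 33 and 23 in mESCs and 603, 504 and 230 in CPCCs. Anxa4, with counts of 72, 72 and 125 against 347, 158 and 133, did not pass (log2 0.79, SE 0.37, edgeR adjusted p = 0.0892), except without S06 (adjusted p = 0.0382). Anxa7 (log2 -0.64, SE 0.20, edgeR adjusted p = 0.0213) was lower but no longer passed without S01, S02, S05 or S06 (adjusted p of 0.0643 to 0.0863). Anxa11 (log2 -0.86, SE 0.28, edgeR adjusted p = 0.023) no longer passed without S01 (0.11) or S05 (0.0708). Anxa9, with 3 to 12 counts per library, was removed by the filter, and Anxa10 and Anxa13 were in neither table.

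**Figure D3:**
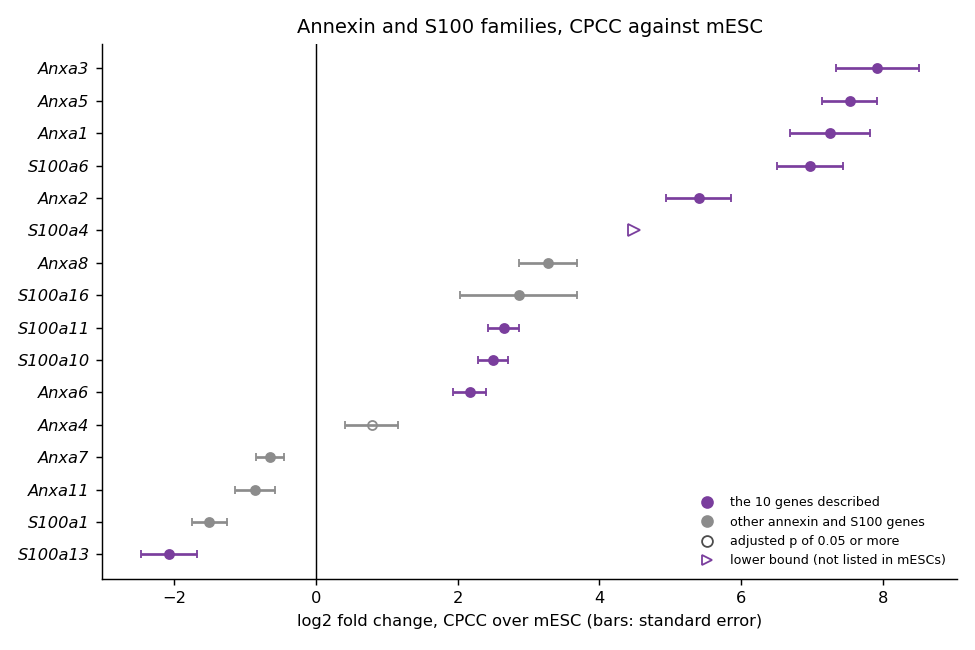
Log2 fold change of CPCCs over mESCs with standard errors for the members (purple) and for other annexin and S100 genes (grey); the triangle is the lower bound for S100a4, and an open circle marks an adjusted p of 0.05 or more. Among the genes listed for both groups, Anxa3, Anxa5, Anxa1 and S100a6 lead at 6.97 to 7.92, and S100a13 is lowest at -2.07.

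The S100 genes of chromosome 3 differed from each other although they lie close together. GENCODE M21 places 14 S100 genes on chromosome 3, of which 12 lie within 185 kb (90511034 to 90695721), and S100a11 and S100a10 lie 2.82 Mb further on (93520488 to 93564643). S100a1 and S100a13 are transcribed away from each other with 42 bases between their starts, the interval printed above, and they were the S100 genes that fell. S100a1 had counts of 156, 226 and 157 in mESCs and 96, 78 and 82 in CPCCs (log2 -1.50, SE 0.25, edgeR adjusted p = 0.000778). S100a16 was called higher (log2 2.86, SE 0.82, edgeR adjusted p = 0.014) on counts of 2, 3 and 9 against 17, 35 and 83, and no longer passed without S01 (0.053), S02 (0.0531) or S06 (0.0602), with log2 values from 2.07 without S06 to 3.72 without S03. S100a6 and S100a4, whose starts are 98.49 and 89.38 kb from that of S100a1, rose. S100a3, S100a7a and S100a8 were listed for CPCCs alone with 11 or 12 counts in S04 and at most 1 in the others, and S100g with 0, 7 and 18 counts, although S100g overlaps Ctps2 on the opposite strand. S100a5, S100a9, S100a14, S100b and S100z were in neither table.

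**Figure D4:**
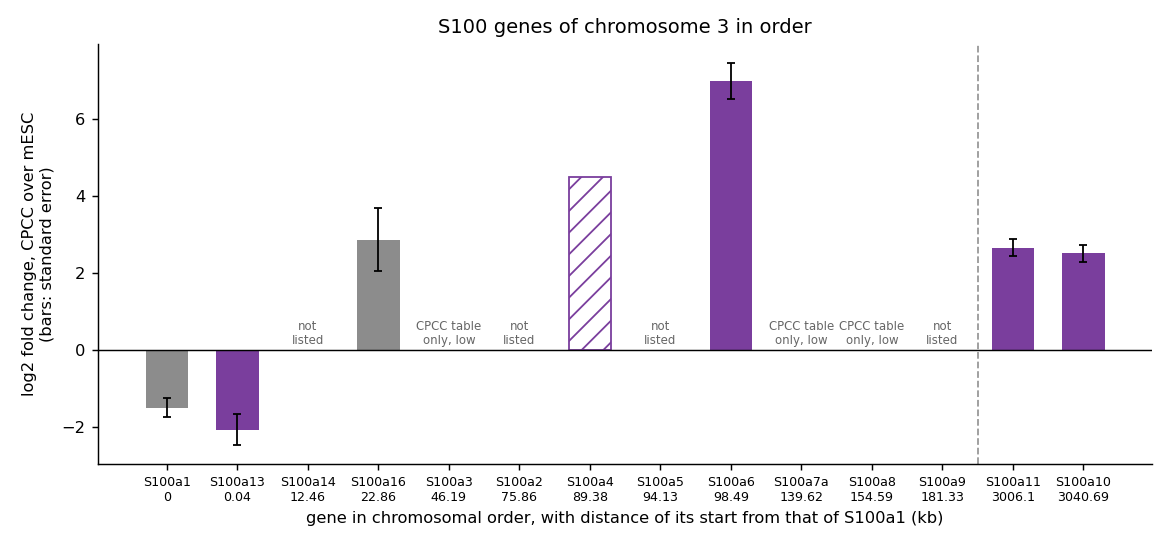
Log2 fold change of CPCCs over mESCs, with standard errors, for the S100 genes of chromosome 3 in their order, with members in purple, other genes in grey and the S100a4 lower bound hatched; numbers under the names are distances in kb from the start of S100a1, and the dashed line marks the 2.82 Mb gap. S100a1 and S100a13, at the left end, fell, while S100a6, S100a11 and S100a10 rose.

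No gene that overlaps a member in GENCODE M21 was listed in a table, but Anxa1 overlaps the long non-coding gene 1500015L24Rik on the opposite strand, Anxa2 the antisense gene Gm16144, and S100a4 the gene Gm42674 on its own strand. Whether reads were counted by strand is not given in the sources used here, so reads of such pairs cannot be told apart.

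Over all genes tested, 31.7% were called higher and 29.7% lower, with a median log2 fold change of 0.0313, and the counts of each list stand beside these shares. Of 9 binding partners of annexin A2 and S100A10, 5 were tested, and 1 rose, 1 fell and 3 did not pass (20% higher and 20% lower, median log2 fold change -0.54, or -0.16 without S03). The gene that rose was Ahnak, a giant scaffold protein held at the membrane by the annexin A2 and S100A10 complex, from 100.3, 115.5 and 99.7 CPM to 1515.5, 765.2 and 639.5 CPM in CPCCs (log2 3.21, SE 0.32, edgeR adjusted p = 4.45e-05). Dlc1, known as a tumour suppressor, fell (log2 -1.24, SE 0.21, edgeR adjusted p = 0.000819). The lower count became 2 without S04, as Hltf passed, and 2 without S06, as Asic1 passed. The potassium channel gene Kcnk3 was listed for CPCCs only, at 0.298, 1.33 and 2.75 CPM.

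In the plasminogen system, whose activation annexin A2 and S100A10 support, 4 genes of 7 were tested and these 4 rose (against 31.7% of all genes), with a further gene of the system not reported here. Their median log2 fold change was 5.77, and it was 3.59 with at least 10 counts in every library, where 2 of them were called higher. Plat, tissue plasminogen activator, went from 0.588 to 0.731 CPM in mESCs to 96.8 to 143.1 CPM in CPCCs (log2 7.48, SE 0.29, edgeR adjusted p = 9.64e-07). Plaur, the urokinase receptor, rose by 6.11 (SE 0.86) on the log2 scale, or 5.24 without S04, 5.53 without S03 and 7.75 without S02, with 67.8 CPM in S04 against 19.3 and 19 CPM in the other CPCC libraries. The inhibitor Serpine2 (log2 5.43, SE 0.35) and the plasminogen receptor Plgrkt (log2 1.62, SE 0.35) also rose. Plau, urokinase, was listed for CPCCs only and was at least 13.3-fold higher than the floor, as was the inhibitor Serpinb2 by at least 12.2-fold, with 14.1, 1.82 and 0.458 CPM in the 3 CPCC libraries and a bound of 2.54-fold without S04. Plg itself, the source of plasmin, was in neither table.

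Of 13 partners and receptors of S100A4, S100A6, S100A13 and annexin A1, 6 were tested, and 3 rose and 3 fell (50% each), with a median of 0.34, or 2.04 with missing genes at 3 counts. All 6 are named, of which Cacybp, Sugt1 and Trp53 were picked after their values were seen. The myosin heavy chains Myh9 (log2 2.52, SE 0.25) and Myh10 (log2 2.18, SE 0.16), to which S100A4 binds, rose, as did Mdm2 (log2 2.03, SE 0.35, or 1.45 without S04), which controls p53. The S100A6 partners Cacybp (log2 -2.01, SE 0.22) and Sugt1 (log2 -1.57, SE 0.14) fell, against the rise of S100a6, and Trp53 fell too (log2 -1.34, SE 0.19). Fgf1, which leaves cells with S100A13, and Syt1 were listed for CPCCs only, at least 8.58-fold and 29.3-fold higher than the floor, where S100a13 was lower. The annexin A1 receptor gene Fpr1 was listed for CPCCs at 1.59, 0.485 and 0.917 CPM, and Fpr2 and Fpr3 were in neither table.

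Membrane repair genes were tested for 13 of 19, of which 7 rose, 1 fell and 5 did not pass (53.8% higher and 7.69% lower). Their median was 2.14, but 0.38 with at least 10 counts in every library and 3.73 with missing genes at 3 counts. Among those tested, the calpain subunit Capn2 (log2 6.73, SE 0.45) and the caveolar coat genes Cavin1 (log2 6.32, SE 0.44, or 6.92 without S03) and Cavin3 (log2 4.64, SE 0.26) rose most. The caveolin genes Cav1 and Cav2 and the coat gene Cavin2 were listed for CPCCs only, at least 822.0-fold, 140.6-fold and 136.8-fold higher than the floor, and without S04 these bounds were 446.6-fold, 69.6-fold and 134.7-fold. Cav1 had 704.3 CPM in S04 against 234.3 and 165.7 in the other CPCC libraries. Dysf, dysferlin (log2 4.19), and its relative Myof (log2 3.8) rose as well. Capns1, which fell (log2 -0.47, edgeR adjusted p = 0.0253), did not pass without S01 (0.0932), S02 (0.0989) or S06 (0.0724), whereas Capn1 passed as lower without S03 (0.0333) or S04 (0.0452).

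Of 18 other EF-hand calcium sensors, all tested, 7 rose, 5 fell and 6 did not pass (median 0.40). At 38.9% higher and 27.8% lower, these shares were near those of all genes. The endoplasmic reticulum proteins Rcn3 (log2 3.77, SE 0.26) and Rcn2 (log2 2.97, SE 0.37) rose and Gca, grancalcin, fell (log2 -3.47, SE 0.20). The number that fell was 2 without S01, S02 or S05 and 3 without S06. Of 14 copines and scramblases, which also act at phospholipid membranes, 9 were tested, 5 rose, 1 fell and 3 did not pass (55.6% higher and 11.1% lower). Their median was 0.96, but 0.36 without S01, 0.50 with at least 10 counts in every library and 2.11 with missing genes at 3 counts. Cpne8 (log2 5.66, SE 0.50, or 6.56 without S01) and Cpne2 (log2 4.59, SE 0.47) rose and Cpne5 (log2 -2.88, SE 0.51) fell. Without S01, S03, S04 or S06 the lower count was 2, and the added gene differed (Xkr8 without S03, Cpne3 without S04). Cpne4, Plscr2 and Plscr4 were listed for CPCCs only. Plgrkt, Dysf and Myof were picked for mention after their values were seen.

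**Figure D5:**
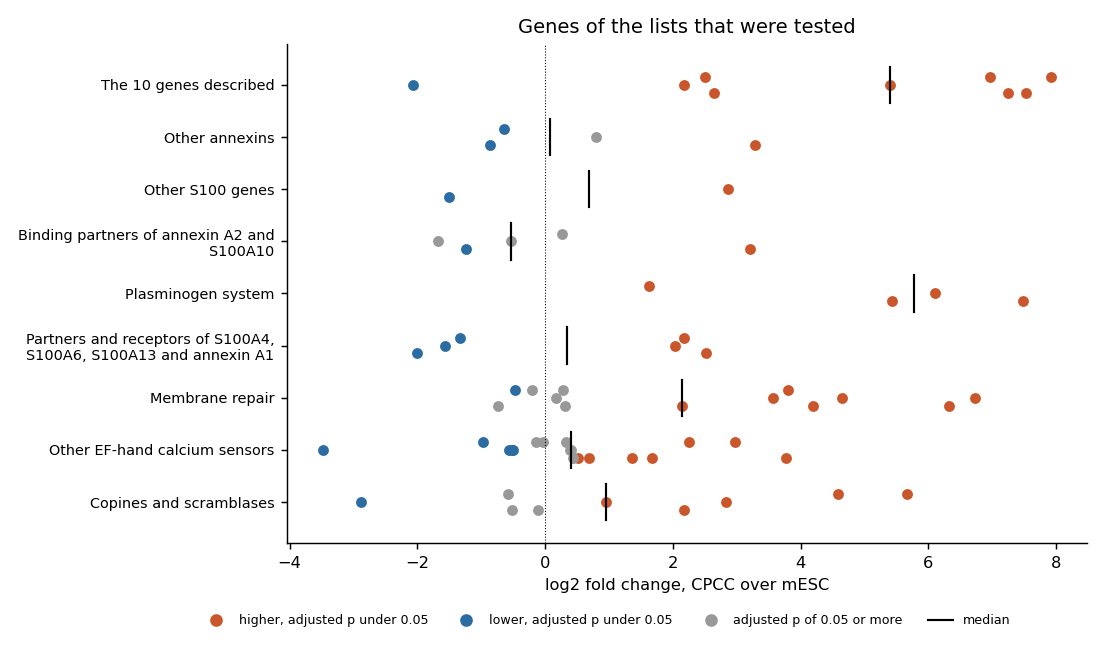
Log2 fold change of CPCCs over mESCs for the tested genes of each list, coloured by whether they passed as higher or lower, with a black line at the median. The plasminogen system (median 5.77) and the 10 described genes (median 5.40 over the 9 tested) lie furthest to the right, and other annexins (0.07) and partners (-0.54) lie near 0.

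The genes with the most similar profile over the 6 libraries were found by root mean square distance of centred log2 CPM among 12462 genes. The nearest gene was Tpm2, a smooth muscle tropomyosin, for Anxa1 (0.248) and for S100a6 (0.195). It was Sema3d for Anxa2 (0.177), Ecm1 for Anxa3 (0.224), Cd109 for Anxa5 (0.197) and Atg4a for Anxa6 (0.118). For S100a10 it was Plpp2 (0.0497), for S100a11 Bcl6 (0.062) and for S100a13 it was Abcc3 (0.0978), which was also lower in CPCCs. The profiles share the same libraries and the same group difference, so these distances are descriptions.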

How the data were processed

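Bulk RNA-seq libraries (polyA+ RNA, SMART-Seq v4) of 3 mESC and 3 CPCC samples were analysed. The authors deposited 1 table of expected counts per group, which list only genes with at least 10 counts over 3 libraries. The submitters' processing notes name STAR 2.7 and mm10, and the counting program and strand setting are not given in the sources used here. Per the study, the 3 samples of each group came from 3 clones, each from a line of a separate blastocyst, but the deposited columns carry no replicate numbers.

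Expected counts were rounded to whole numbers. Genes in both tables (13001) were filtered with filterByExpr, leaving 12471, and tested with edgeR 4.0.16 (TMM, quasi-likelihood test) in R 4.3.3, with Benjamini-Hochberg adjustment over all of them and a threshold of 0.05. CPM used TMM-scaled library sizes. A gene missing from a table was set to a floor of 3 counts per library for bounds. These bounds are ratios of mean CPM and carry no interval for counting error or for variation between libraries. On simulated data, edgeR recovered 117 of 126 genes changed at least 4-fold and 139 of 197 changed genes overall among 12471, with 6 unchanged genes called. Far fewer genes were changed there than were called in the data (61.4%), so these rates need not hold for the data. Ratios of counts within a library were compared by exact permutation tests in Python 3.11.15. DESeq2 1.42.0, other normalizations, filters, floors and left-out libraries were tried as alternatives.

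All 10 members and every other annexin and S100 gene listed were named. From each list, up to 3 genes by size of change, and up to 3 listed in 1 table only, were named. Markers, nearest and overlapping genes, and genes whose calls changed between fits were named outside this rule, and not all are marked. Members, lists and markers were chosen with earlier results of these data known. Promoter sequences came from RefSeq (GRCm38.p6) and gene models from GENCODE M21, both of the build of the tables. No protein sequence was used here, and 1 gene of the plasminogen list is not reported here and was left out of its counts.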

Additional observations from a re-analysis of the deposited data

How the results depend on the processing

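All 9 tested members kept their direction and their adjusted p under 0.05 in every one of the 14 other fits that could include them, which covered DESeq2, other scalings, filters, the treatment of genes listed in 1 table and each library left out. Anxa3 could not be fitted with at least 10 counts in every library, since S03 had 3. The median of the members was then 4.10, and it was 6.21 with missing genes at 0 counts, which adds S100a4, against 5.40. Over all 8 lists, 14 genes were lower, against 9 to 16 with 1 library left out (9 without S01, S02 or S05) and 7 with a 2-fold threshold. The median over all lists was 0.44, and became 1.19 where missing genes were set to 0 counts and 1.09 where they were set to 3, because genes listed for CPCCs only then enter. The median of the other annexins (0.07) became -0.19 without S04 (-0.19 to 0.22 with 1 library left out) and -0.52 with no filter, and that of the other S100 genes (0.68) became -1.43 with at least 10 counts in every library, where S100a16 is not tested; the cause of the first change was not tested. The number of genes called ranged from 6536 to 9011 over these fits, against 7656. No paired analysis was possible because the columns carry no replicate numbers. Depth limits the mESC levels of Anxa1, Anxa3 and Anxa5, which rest on 3 to 24 counts per library.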
